A study of Bombyx mori with 9 samples.

Results

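A1, A3 and A4 are actin genes of the mulberry silkworm Bombyx mori, and they are 3 of the 16674 genes in the count table of this silk gland RNA-seq study. A1 is a muscle-type actin, while A3 and A4 are cytoplasmic actins. They were taken by their gene IDs, with earlier results of these data known, and A1 was taken because it varied strongly over the libraries. The spread of A1 and the steadiness beside it of A3 and A4 are therefore given as a description, without a test.

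Whole silk glands were dissected from larvae on day 3 of the 5th instar, and each library came from 1 larva. LAT51, a strain kept at the Cordillera site (CAR), gave 3 libraries, and MO204 and DMMMSU119, kept at the warmer Misamis Oriental site (TCMO), gave 3 each. LAT51 and MO204 were ranked by the rearing facilities as priority strains and DMMMSU119 as a poor performer. LAT51 was the only CAR strain used, so that a difference between LAT51 and the TCMO libraries can belong to the strain or to the site, and these cannot be told apart.

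Actin is the protein of the thin filaments. Muscle-type actins build the sarcomere, where they slide along myosin under the control of troponin and tropomyosin, and cytoplasmic actins form the cortex and the transport tracks of nearly every cell. In the silk gland, cytoplasmic actin filaments lie in the secretory cells that release fibroin and sericin into the lumen. The gland itself is a secretory epithelium, and muscle genes are not among its defining markers.

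Library totals ran between 4527847 and 11641130 counts, and levels are given as CPM, counts scaled to a common library total, after TMM normalization, which sets libraries to 1 scale through the bulk of their genes. The TMM factors were 1.26 to 1.53 in LAT51 and MO204, against 0.421 to 0.591 in DMMMSU119. The silk genes FIBH, Fib-l, LOC101740082, P25, Ser2 and Ser3 held 12.3% to 19.1% of all counts in LAT51, 14.5% to 19.6% in MO204 and 24.4% to 36.0% in DMMMSU119, and FIBH, Fib-l and P25, the genes of the fibroin complex, were at 1213 CPM or more in every library. Ser3 was at 1.80 to 9.98 CPM in LAT51, 14.7 to 82.6 CPM in MO204 and 7711 to 30428 CPM in DMMMSU119. Values of a strain are listed by larva number, which is 1, 2 and 4 in LAT51, 1, 3 and 4 in MO204, and 0, 2 and 4 in DMMMSU119. A low-count filter left 7610 genes, and A1, A3 and A4 all passed it.

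A1 had few counts in LAT51, and it was low in most TCMO libraries and very high in a single one. LAT51 had 29, 10 and 4 counts of A1, with exact Poisson 95% intervals of 19.4 to 41.6, 4.8 to 18.4 and 1.09 to 10.2 counts. MO204 had 237, 2440 and 145 counts, the highest in MO204-3. DMMMSU119 had 27557 counts in DMMMSU-0 but 49 and 35 in its other larvae. Of the 30506 A1 counts in all 9 libraries, 90.3% came from DMMMSU-0 and 8.0% from MO204-3. The intervals cover counting error only, and the other 7 libraries together held the small remainder.

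On the CPM scale, A1 was at 2.90, 0.646 and 0.701 in LAT51, at 16.9, 397 and 15.9 in MO204, and at 7723, 12.1 and 6.45 in DMMMSU119. The 3 LAT51 libraries were all below the 6 TCMO libraries, whereas the ranges of MO204 and DMMMSU119 overlapped. Scaled by library totals alone, LAT51-1 had 4.43 CPM of A1 and DMMMSU-4 had 3.69 CPM, so that LAT51 then overlapped with TCMO. Of the 7610 genes, 4.47% had all of LAT51 below all of TCMO, 9.57% had LAT51 below MO204 and 19.9% had LAT51 below DMMMSU119. A1 was chosen on these values, so nothing is read from its place among those genes.

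The group means of A1 carried the weight of the high libraries. A1 averaged 1.41 ± 1.28 CPM in LAT51, then 143 ± 219.6 in MO204 and 2580.4 ± 4453 in DMMMSU119 (SD, n = 3 each), and the SD exceeded the mean in both TCMO strains. The medians were 0.701, 16.9 and 12.1 CPM in that order of strains. As a log2 ratio of means, A1 was at -6.66 for LAT51 vs MO204, at -10.83 for LAT51 vs DMMMSU119 and at -4.17 for MO204 vs DMMMSU119. Without DMMMSU-0 the LAT51 vs DMMMSU119 value was -2.71, and MO204 vs DMMMSU119 turned to 3.95. Without MO204-3 the LAT51 vs MO204 value was -3.53. The order of LAT51 below the TCMO strains therefore held without either library, whereas the order of MO204 and DMMMSU119 was set by 1 larva.

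**Figure D1:**
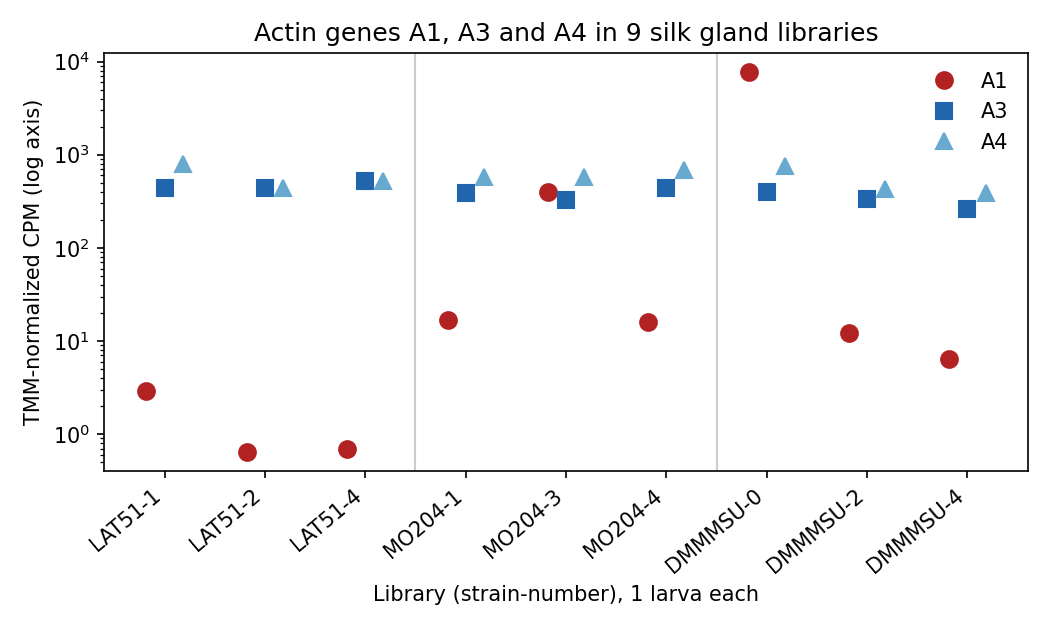
TMM-normalized CPM of A1 (circles), A3 (squares) and A4 (triangles) on a log axis, 1 point per gene in each of 9 libraries of 1 larva, with strains split by grey lines. A1 spanned 0.646 to 7723 CPM, while A3 stayed within 258 to 517 and A4 within 384 to 794 CPM.

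A3 stayed within 258 to 517 CPM after TMM, against 139 CPM in DMMMSU-2 to 666 CPM in LAT51-1 by library totals alone. Its CPM after TMM were 436, 439 and 517 in LAT51, then 385, 330.1 and 442 in MO204, and 397, 331 and 258 in DMMMSU119. The counts behind them were 1345 to 6797 per library, so that counting error was small. A3 averaged 464 ± 46.3 CPM in LAT51, then 386 ± 56.1 in MO204 and 329 ± 69.5 in DMMMSU119 (SD, n = 3 each).

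The strain means of A3 thus followed the order LAT51, MO204, DMMMSU119, in steps close to the spread within a strain. The log2 ratio of means was 0.27 for LAT51 vs MO204 and 0.23 for MO204 vs DMMMSU119, and both pairs overlapped. For LAT51 vs DMMMSU119 it was 0.50, or 1.41-fold, and all 3 LAT51 libraries were above all 3 of DMMMSU119, as they were for 20.9% of the 7610 genes. DMMMSU-0 and MO204-3, where A1 was highest, did not stand apart in A3.

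The strain means of A4 lay closer to each other than those of A3, and its SD was larger in LAT51 and DMMMSU119. The LAT51 larvae had 794, 439 and 522 CPM of it, those of MO204 had 571, 575 and 683 CPM, and those of DMMMSU119 had 749, 432 and 384 CPM. The A4 means were 585 ± 186 CPM in LAT51, then 609.9 ± 63.7 in MO204 and 521 ± 198 in DMMMSU119 (SD, n = 3 each). The strains overlapped in every pair, and the log2 ratios of means were -0.06 for LAT51 vs MO204, 0.17 for LAT51 vs DMMMSU119 and 0.23 for MO204 vs DMMMSU119. The order of the A4 means was therefore MO204, LAT51, DMMMSU119, and no neighbours in it differed beyond their spread.

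Against both TCMO strains together (n = 6), the comparison by location, the log2 ratio of means in LAT51 was -9.91 for A1, 0.38 for A3 and 0.05 for A4. The A1 value was -5.99 without DMMMSU-0, -3.18 without DMMMSU-0 and MO204-3, and -4.55 by the medians. A1 averaged 1.41 ± 1.28 CPM in LAT51 and 1362 ± 3120 CPM in TCMO (SD). A3 averaged 464 ± 46.3 CPM in LAT51 and 357 ± 64.5 CPM in TCMO, and A4 585 ± 186 CPM in LAT51 and 566 ± 140 CPM in TCMO. For A3 and A4 the libraries of both sites overlapped.

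Set among all genes tested, the SD of log2 CPM over the 9 libraries was 4.21 for A1, the 30th largest of 7610. It was 0.30 for A3, at rank 7036, and 0.37 for A4, at rank 6434, while the median gene had an SD of 0.64. A1 was chosen because it varied strongly, with A3 and A4 to be set beside it, so nothing is read from these ranks. The distance between the highest and lowest library on the log2 CPM scale was 13.08 for A1, 1.0 for A3 and 1.05 for A4.

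Ratios of counts within a library do not depend on how libraries are scaled. They compare libraries and not gene levels, since the genes differ in length. The log2 ratio of A1 to A3 was -7.23, -9.41 and -9.53 in LAT51, then -4.51, 0.27 and -4.80 in MO204, and 4.28, -4.78 and -5.32 in DMMMSU119. Only in DMMMSU-0 and MO204-3 did A1 reads outnumber A3 reads. The 4 remaining TCMO libraries lay close to each other, within -5.32 to -4.51, although they belong to both strains, and all were above LAT51.

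The ratio of A1 to A4 gave the same library order at the extremes. Its log2 value was -8.10, -9.41 and -9.54 in LAT51, -5.08, -0.54 and -5.43 in MO204, and 3.37, -5.16 and -5.89 in DMMMSU119. The ratio of A4 to A3 was 1.82, 1.0 and 1.01 in LAT51, then 1.48, 1.74 and 1.54 in MO204, and 1.88, 1.3 and 1.49 in DMMMSU119. Over the 9 libraries the cytoplasmic pair moved by 0.91 on the log2 scale, against 13.81 for A1 to A3 and 12.91 for A1 to A4.

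**Figure D2:**
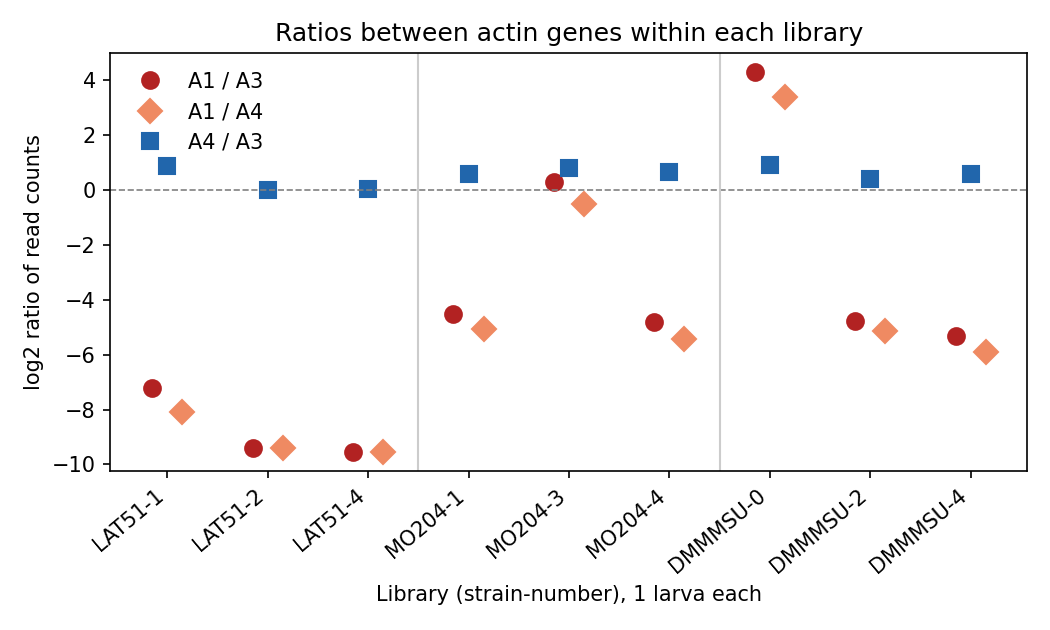
log2 ratio of read counts within each of 9 libraries for A1 over A3 (circles), A1 over A4 (diamonds) and A4 over A3 (squares), with equal counts at the dashed line and strains split by grey lines. A4 over A3 stayed between 0.00 and 0.91, while A1 over A3 ran from -9.53 in LAT51-4 to 4.28 in DMMMSU-0.

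Scaling moved all 3 genes in the pairs with DMMMSU119, and A3 and A4 by more than their own strain differences. With libraries scaled by their totals alone, the median of all genes shifted by 1.38 for LAT51 vs DMMMSU119 and by 1.4 for MO204 vs DMMMSU119 on the log2 scale. The LAT51 vs DMMMSU119 value then became 1.87 for A3 and 1.54 for A4, and the MO204 vs DMMMSU119 value 1.63 for A3 and 1.60 for A4, most of which was the shift of all genes. With DESeq2 size factors the median moved by less than 0.1. The silk genes took a larger share of the DMMMSU119 counts, as given above, and their part in these values was not tested.

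**Figure D3:**
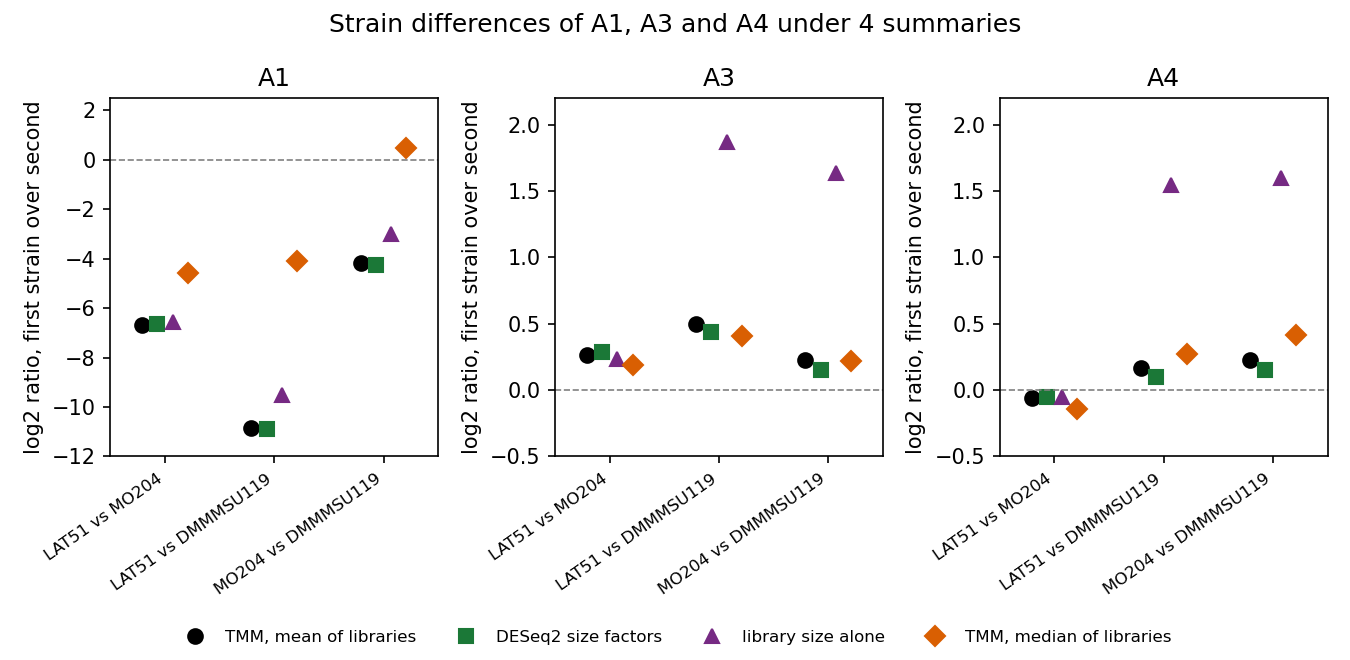
log2 ratio of the first strain over the second for A1, A3 and A4 in 3 strain pairs, under TMM with means (circles), DESeq2 size factors (squares), library size alone (triangles) and TMM with medians (diamonds). The A1 axis spans a wider range than those of A3 and A4. Library size alone lifted A3 and A4 to 1.54 to 1.87 in both pairs with DMMMSU119, and the median put A1 at 0.48 in MO204 vs DMMMSU119.

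A2, another muscle-type actin of the silkworm, was also in the count table. It had 0 counts in every LAT51 library, then 0, 13 and 1 in MO204, and 60, 0 and 0 in DMMMSU119, and it did not pass the filter on low counts. Apart from 1 count in MO204-4, all A2 counts came from the libraries where A1 was highest. The other libraries had 4 to 237 A1 counts, too few to show A2 reliably at the ratios given next. An absence of A2 there is therefore not shown. In the ASM3026992v2 assembly A1 and A2 both span 1131 bases as a single transcript, so their counts can be compared per length, and A1 had 188 counts per A2 count in MO204-3 and 459 in DMMMSU-0. Muscle actin genes are near-identical copies. How reads that align at more than 1 place were counted is not given in the sources used here, and the division of reads between A1 and A2 is uncertain.

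A3 and A4 are direct neighbours in that assembly, and A4 overlaps the unnamed gene LOC101741471, which had 1.84 to 4.32 CPM over the 9 libraries, far below A4. Reads that lay over more than 1 gene were not counted. Reads of cytoplasmic actins may also be shared between copies. The strand setting of the counting is not given in the sources used here.

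A list of muscle genes was read beside A1. It found 9 genes by symbol or synonym, of which 7 passed the filter on low counts, and Projectin and Titin1 did not. In LAT51 vs DMMMSU119, 5 of the 7 were lower in LAT51 and 0 higher at an adjusted p under 0.1 (edgeR), where 19.8% of all genes tested were called lower and 38% in either direction. These were TpnI, the inhibitory subunit of troponin, MLC-2, the regulatory light chain of myosin, Mf or myofilin and Fln or flightin, both proteins of the insect thick filament, and AK, arginine kinase, which rebuilds ATP from phosphoarginine in muscle and other tissues. DESeq2 called 3 in this comparison, AK, Fln and Titin2, where 32.7% of genes were called, so that TpnI, MLC-2 and Mf were not called and Titin2 was. The list was chosen with earlier results known and is not independent of A1. TpnI, MLC-2, Mf and Fln passed the filter only through TCMO libraries, so that lower in LAT51 was the direction open to them. Nothing is therefore read from the count of 5 against the share of all genes.

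For TpnI, LAT51 had 1.5, 0.323 and 0.525 CPM, MO204 had 6.91, 148 and 7.12 CPM, and DMMMSU119 had 2724, 5.91 and 4.61 CPM. For LAT51 vs DMMMSU119 its log2 FC was -10.16 (SE 2.87, adjusted p = 0.0287). Without DMMMSU-0 the log2 FC of TpnI was -2.71 and it was not called (edgeR, SE 1.46, adjusted p = 0.191). All 3 LAT51 libraries were below the other 6, as for 4.47% of the 7610 genes. DMMMSU-0 and MO204-3 stood above the rest, as for A1. For MLC-2, LAT51 had 1.20, 0.710 and 0.876 CPM, MO204 had 9.83, 325 and 15.7 CPM, and DMMMSU119 had 3992, 12.3 and 6.08 CPM. It had a log2 FC of -10.48 for LAT51 vs DMMMSU119 (SE 2.87, adjusted p = 0.0263). Without DMMMSU-0 the log2 FC of MLC-2 was -3.27 and it was not called (edgeR, SE 1.44, adjusted p = 0.118). The regulatory light chain thus had the same pair of high libraries.

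The counts of Mf were 2, 3 and 3 in LAT51, then 53, 541 and 34 in MO204, and 4076, 14 and 17 in DMMMSU119. At a floor of 3 counts per library, Mf was at least 1128-fold lower in LAT51 than the DMMMSU119 mean (adjusted p = 0.0264). Without DMMMSU-0 this bound was 9.69-fold, and Mf was not called (adjusted p = 0.136). Fln had 0 counts in all 3 LAT51 libraries, then 1, 16 and 10 in MO204, and 79, 2 and 8 in DMMMSU119. It was at least 23.7-fold lower in LAT51 than the DMMMSU119 mean (adjusted p = 0.0304), and without DMMMSU-0 at least 2.90-fold. Mf and Fln passed the filter on low counts only through TCMO libraries, and Fln did not pass without both DMMMSU-0 and MO204-3. TpnI and MLC-2, with 3 to 15 and 5 to 12 counts in LAT51, would also not have passed on LAT51 alone. Mf and Fln were at or under the floor in every LAT51 library.

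AK departed from A1. LAT51 had 30.2, 13.2 and 36.3 CPM of it, MO204 had 33.1, 141 and 27.3 CPM, and DMMMSU119 had 2644, 546 and 2182 CPM. All 3 DMMMSU119 libraries were above all others, also DMMMSU-2 and DMMMSU-4, where A1 was low. LAT51 lay wholly below DMMMSU119 for 19.9% of the 7610 genes, and the share with MO204 also wholly below was not computed. The log2 FC of AK was -6.08 for LAT51 vs DMMMSU119 (SE 0.92, adjusted p = 0.00318) and -4.74 for MO204 vs DMMMSU119 (SE 0.86, adjusted p = 0.00884).

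The elastic proteins of the sarcomere varied less. For Titin2, LAT51 had 3.19, 3.36 and 11.9 CPM, MO204 had 5.06, 15.1 and 14.7 CPM, and DMMMSU119 had 67.3, 4.19 and 7.0 CPM. Kettin, which ties thin filaments to the Z disc, was at 6.69, 2.19 and 5.43 CPM in LAT51, at 3.35, 2.93 and 4.38 in MO204, and at 20.7, 5.17 and 5.16 in DMMMSU119. Their log2 FC for LAT51 vs DMMMSU119 was -2.11 for Titin2 (SE 1.0, adjusted p = 0.138) and -1.12 for Kettin (SE 0.61, adjusted p = 0.195), and the strains overlapped in both. Projectin had 2 to 8 counts and Titin1 0 to 20 counts per library, with the highest Titin1 count in DMMMSU-0.

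In MO204 vs DMMMSU119, AK was the only gene of the 7 that passed, where 16.7% of all genes tested were called lower and 33% in either direction. Without DMMMSU-0, AK stayed lower (log2 FC -4.32, adjusted p = 0.0104) and MLC-2 was called higher in MO204 (log2 FC 3.70, SE 1.46, adjusted p = 0.0964), where 34.7% of genes were called in either direction. Without DMMMSU-4, Kettin was called lower beside AK, where 13.8% of genes were called lower. In LAT51 vs DMMMSU119, leaving out DMMMSU-0 or LAT51-2 left AK and Fln as the 2 calls, where 19.3% and 11.7% of genes were called lower.

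Against TCMO as a whole, with MO204 and DMMMSU119 fitted as 1 group, edgeR called 0 of the 7 muscle list genes. Of all genes tested, 1.48% were called in either direction. At an unadjusted p under 0.05 there were 5 of the 7, and 15.7% of all genes tested. DESeq2 called 2, AK and Fln (10.2% of genes), and limma on the deposited log2 values 0, while edgeR with 1 mean per strain called 5 (15.8% of genes). The share of all genes called by limma was not computed, here or for LAT51 vs MO204, so nothing is read from its counts of 0. In LAT51 vs MO204, edgeR called 0, where 3.07% of all genes tested were called. At an unadjusted p under 0.05 there were 4, and 13% of all genes tested, and DESeq2 called 1, Fln (5.66% of genes), and limma 0. Without DMMMSU-0, which belongs to neither strain of this pair but enters the shared estimate of the spread, TpnI, MLC-2 and Mf were called lower in LAT51, as were 1.98% of genes.

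The median log2 FC of the 7 genes was -8.20 for LAT51 vs TCMO, -6.08 for LAT51 vs MO204, -9.02 for LAT51 vs DMMMSU119 and -3.52 for MO204 vs DMMMSU119. Over all genes tested it was -0.04, -0.01, 0.01 and 0.03 in the same order of comparisons. The first 3 list medians rest on fitted values for genes at the floor in LAT51, and with those genes at their bound they were -5.13, -1.89 and -6.08. Without DMMMSU-0 the median was -3.27 for LAT51 vs DMMMSU119 (-2.71 with bounds), and for MO204 vs DMMMSU119 it turned to 1.06.

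Leaving out both DMMMSU-0 and MO204-3, a setting chosen after the values were seen, the difference of LAT51 from the other larvae was smaller, with smaller standard errors. For LAT51 vs DMMMSU119, 4 list genes were then called lower (17.8% of genes), with log2 FC of -3.27 for MLC-2 (SE 0.49, adjusted p = 0.00518) and -2.71 for TpnI (SE 0.64, adjusted p = 0.0209), and Mf and AK were the other calls. For LAT51 vs MO204, MLC-2 (log2 FC -3.76, SE 0.48, adjusted p = 0.0185), TpnI (log2 FC -3.14, SE 0.63, adjusted p = 0.0830) and Mf were called lower, as were 1.03% of genes. Against all of TCMO, MLC-2 and Mf were called lower, as were 0.412% of genes. A1 itself was at -3.18 for LAT51 vs TCMO in the same libraries.

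Of the 7 list genes tested, 5 had DMMMSU-0 as their highest and MO204-3 as their next highest library, as did 89 or 1.17% of all genes tested. These were TpnI, MLC-2, Mf, Fln and Titin2, and A1 had the same order. The order was taken from A1, and the list was chosen with results known. Fln passed the filter only through these libraries, and Titin2 was nearly tied, at 15.1 CPM in MO204-3 and 14.7 CPM in MO204-4. Nothing is therefore read from the 5 against the share of all genes. Within each library the count of A1 was 1.33 to 2.84 times that of TpnI and 0.80 to 2.42 times that of MLC-2, while A1 itself spanned 4 to 27557 counts. Against Mf the ratio was looser, from 1.33 in LAT51-4 to 14.5 in LAT51-1, where Mf had 3 and 2 counts. In bulk samples, fewer cells of a type and less RNA per cell cannot be told apart.

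**Figure D4:**
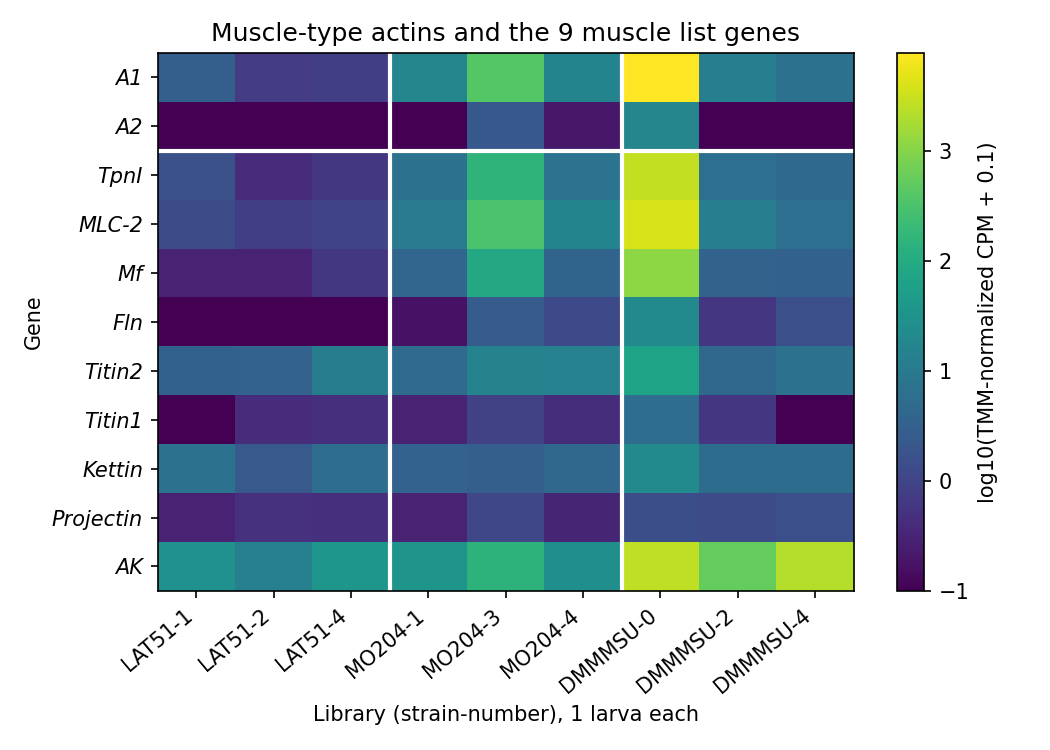
Colour gives log10(TMM-normalized CPM + 0.1) of A1, A2 and the 9 muscle list genes (rows) in 9 libraries (columns), with strains split by vertical white lines and the actins split from the list by a horizontal one. A1, A2, TpnI, MLC-2, Mf and Fln were brightest in DMMMSU-0 and next in MO204-3, whereas AK was bright in all 3 DMMMSU119 libraries, at 546 to 2644 CPM.

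Marker genes of other tissues also differed between libraries. The summed CPM of the fat body genes Sp1, Sp2 and VG was 10.3 to 62.2 in LAT51, 8.54 to 222 in MO204 and 199 to 23274 in DMMMSU119. Sp1 and Sp2, the storage proteins, carried the sum in DMMMSU119. VG, vitellogenin, was at 5.16 to 9.81 CPM in LAT51, 0 to 7.81 CPM in MO204 and 0 to 2.46 CPM in DMMMSU119, with 0 in MO204-4 and DMMMSU-4. DMMMSU-0 had the highest sum, and MO204-3 had the highest of MO204, at 222 CPM against 8.54 and 108 CPM. DMMMSU-2 had 6624 CPM of these genes with A1 at 12.1 CPM. The 206 cuticular protein genes, a list for epidermis and trachea of which 133 to 156 were at 0 in each library, summed to 689 to 1451 CPM in LAT51, 1747 to 4166 in MO204 and 36106 to 44975 in DMMMSU119. The haemocyte genes PPO1 and PPO2 summed to 5.59 to 14.0 CPM in every library, and the neuronal gene Elav was at 17.0 to 66.3 CPM. The part of these tissues in the A1 values was not tested.

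The genes most like A1, by Pearson's r of log2 CPM over the 9 libraries, were TpnI (0.998), LOC692826 (0.997), LOC732984 and LOC100188972 (both 0.996), MLC-2 (0.994), LOC692913 (0.993), LOC101745298 (0.992) and LOC733016 (0.985). Mf came 9th at 0.985, Fln 26th at 0.917, Titin2 86th at 0.802, AK 510th at 0.609 and Kettin 557th at 0.588. The lowest were LOC119629684 (-0.936), LOC101741066 (-0.911) and LOC119629669 (-0.887). Without TMM their r was -0.787, -0.861 and -0.394 in that order, whereas all 8 of the genes most like A1 stayed among the first 8. By Spearman's correlation 2 of the 8 genes stayed among the first 8, with rho of 0.933 to 0.983 for the 8. Without DMMMSU-0 and MO204-3, a setting chosen after the values were seen, r of the 8 genes was 0.916 to 0.990 over 7 libraries, and 4 stayed among the first 8.

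For A3 the likeness was greatest for LOC733023 (0.976), LOC101739967 (0.965), LOC101742905 (0.958) and LOC100302629 (0.956). For A4 it was greatest for LOC733024 (0.971), LOC101746947 (0.948), LOC101745127 (0.943) and LOC101737117 (0.942). A3 and A4 shared none of these genes with each other or with A1. Without TMM, 1 of the 4 genes for A3 and 2 of the 4 for A4 stayed in place.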

How the data were processed

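Trimmed reads were aligned by the authors with HISAT, and featureCounts gave the deposited table of raw, whole-number counts. The submitters' processing notes name HISAT2 2.1.0, featureCounts 1.4.6-p5 and DESeq2 1.30.1. The deposited log2 values equal log2 of the count over a size factor, plus 1, and were an alternative. A RefSeq assembly is named for another alignment of these reads, with STAR. The build of the HISAT run and its strand and multi-mapping settings are not given in the sources used here.

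Counts were filtered with edgeR 4.0.16 (filterByExpr by strain) and TMM-normalized. Muscle list genes were tested by the quasi-likelihood test over 9 libraries, with Benjamini-Hochberg adjustment over 7610 genes at 0.1, and A1, A3 and A4 were not tested between strains. The members and lists were chosen with earlier results of these data known. The rule named the actins, the 8 muscle list genes with the highest means (with up to 3 by adjusted p per direction) and the 8, 4 and 4 genes most like A1, A3 and A4, plus the 3 least like A1. LOC101741471, PFN and Mef2 were added after values were seen. A list of actin regulators matched 0 genes, since the gene table used holds no descriptions. Symbols were matched to ASM3026992v2 for 14504 of 16674 IDs. No 2 libraries of a strain agreed within sampling noise. P-values of strain pairs measure the spread between larvae within strains. For LAT51 vs TCMO, MO204 and DMMMSU119 were fitted as 1 group, so the spread there also holds the difference between these strains. Alternatives were limma 3.58.1, DESeq2 1.42.0, other scalings and filters, and each library left out. The script was tested on simulated data.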

Additional observations from a re-analysis of the deposited data

Results flagged for a closer look

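In the 6 TCMO libraries, DMMMSU-0 lay far above the other 5 for 6 of the 7 tested muscle list genes. It also had 7723 CPM of A1, with the next library at 397 CPM, but A1 was chosen for its spread over these libraries and this adds nothing. DMMMSU-0 had 2724 CPM of TpnI, 3992 CPM of MLC-2 and 1142 CPM of Mf, with the next libraries at 148, 325 and 88.0 CPM. It had 22.1 CPM of Fln, 67.3 CPM of Titin2 and 20.7 CPM of Kettin, with the next at 2.60, 15.1 and 5.17 CPM. For AK no library lay apart in this way. Chance alone marks about 5% of groups at the 95% level used only where values are normally distributed, which was not checked for CPM. The list was also chosen with results known and its genes share their libraries, so the 6 cannot be read against that rate.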

How the results depend on the processing

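Over the libraries left out in turn, the A1 log2 ratio ran from -10.98 to -5.99 for LAT51 vs TCMO, -7.73 to -3.53 for LAT51 vs MO204, -11.90 to -2.71 for LAT51 vs DMMMSU119 and -7.30 to 3.95 for MO204 vs DMMMSU119. For A3 it ran from 0.29 to 0.45, 0.17 to 0.38, 0.35 to 0.65 and 0.083 to 0.39 in the same comparisons, and for A4 from -0.24 to 0.22, -0.34 to 0.11, -0.12 to 0.52 and 0.05 to 0.58. Muscle list calls ran from 0 to 0, 0 to 3, 2 to 6 and 1 to 2. Without DMMMSU-0 and MO204-3, A1 was at -3.18 for LAT51 vs TCMO, -2.71 for LAT51 vs DMMMSU119 and 0.82 for MO204 vs DMMMSU119, A3 at 0.49 for MO204 vs DMMMSU119, and 2 genes were called for LAT51 vs TCMO and 3 for LAT51 vs MO204. By the median CPM, A1 was at -4.55, -4.11 and 0.48 for LAT51 vs TCMO, LAT51 vs DMMMSU119 and MO204 vs DMMMSU119. By the mean of the deposited log2 values it was at -5.66 and -6.10 for LAT51 vs TCMO and LAT51 vs DMMMSU119. With library size alone, A3 was at 0.83, 1.87 and 1.63, and A4 at 0.54, 1.54 and 1.60, for LAT51 vs TCMO, LAT51 vs DMMMSU119 and MO204 vs DMMMSU119. The DESeq2 Wald test called 2, 1, 3 and 2 muscle list genes (10.2%, 5.66%, 32.7% and 29.5% of all genes), against 0, 0, 5 and 1 by edgeR. DESeq2 size factors in edgeR gave 2 for MO204 vs DMMMSU119 (32.5% of all genes), leaving out DMMMSU-2 gave the 6 for LAT51 vs DMMMSU119 (25.6%), and 1 mean per strain gave 5 for LAT51 vs TCMO. Same-numbered libraries are different larvae, and their deviations from the strain means correlated at -0.15 to 0.23 over 5 pairs. With the replicate number as a block, the calls were 0, 0, 5 and 1 (0.0263%, 0.381%, 24.2% and 6.65% of all genes). Beyond these, 8 other values moved, which were 4 strain differences of the A1 to A3 and A1 to A4 ratios under summed counts and 4 counts of like genes kept. The causes were not tested. The 4 to 29 A1 counts in LAT51 limit the precision of every ratio with A1.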

Other observations

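PFN, profilin, a partner of actin monomers in none of the lists, was looked up after values were seen. LAT51 had 509.6, 537 and 357 CPM, MO204 had 544, 593 and 391 CPM, and DMMMSU119 had 429, 288 and 429.7 CPM. Its strains overlapped, and its levels lay in the range of A3 and A4.

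Mef2, a transcription factor of muscle genes in flies, was likewise looked up after values were seen. It had 3, 0 and 0 counts in LAT51, 2, 0 and 1 in MO204 and 0 in all 3 DMMMSU119 libraries. It was thus at 0 in both DMMMSU-0 and MO204-3, where a count of 0 allows up to 0.841 and 0.488 CPM.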
